A study of Drosophila melanogaster with 4 samples.

Results

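The proteasome subunit genes were taken from the expression table of the series by name, as every entry whose symbol begins with Prosalpha, Prosbeta, or Pros, Rpn or Rpt followed by a digit. This rule found 41 of the 15627 named genes. Of these, 28 encode canonical subunits and 13 are variants marked R or T in their current symbol. The table uses older symbols for 11 of the 41, and current symbols are used below. The older ones are Pros25 for Prosalpha2, Pros29 for Prosalpha3, Pros28.1 for Prosalpha4, Pros35 for Prosalpha6, Pros26 for Prosbeta6, Pros26.4 for Rpt2, Pros45 for Rpt6, Pros54 for Rpn10, Pros28.1A for Prosalpha4T1, Pros28.1B for Prosalpha4T2 and Prosbeta5R for Prosbeta5R1.

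RNA was profiled in wing imaginal discs, the larval epithelia that give rise to the adult wing and thorax, of Drosophila melanogaster at the third instar, with larvae reared at 25 °C. The Polycomb RNAi discs were y1 w* and carried the insertion P{Act5C-GAL4}25FO1, a GAL4 driver under an actin promoter, together with UAS-dsRNA Polycomb. This transgene gives a double-stranded RNA against Polycomb (Pc), a chromodomain protein of a repressive complex. The wild-type discs were also y1 w* and carried the same driver insertion without the RNAi transgene, over the balancer CyO, y+. Each genotype had 1 RNA library, so every difference given here compares a pair of libraries, without replicate error or p-value. The series also holds H4K20me1 chromatin libraries from wild-type discs, which were not used here.

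The proteasome degrades proteins that carry ubiquitin chains. Its core particle is a barrel in which outer rings of alpha subunits control entry and inner rings of beta subunits hold the proteolytic sites. The regulatory particle caps the barrel. Its base contains the Rpt ATPases, which unfold substrates, and large Rpn scaffold proteins, and its lid contains further Rpn subunits that include the deubiquitinase Rpn11. In Drosophila many subunits have a duplicated gene that is used mainly in the male germline, and these duplicates carry the letters T (testis) or R (related) in their symbols.

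Values are in the FPKM unit of the authors' deposited table, which divides fragments by transcript length and by the mapped total of a library. A level in FPKM is per length, so levels of different genes can be set side by side, but only roughly. Overlaps with other genes and shared reads can still differ from gene to gene. Reads were not assigned to a strand, per the labels' protocols. In the gene order of a RefSeq table of the Release 6 assembly, 13 of the 28 canonical genes and 4 of the 13 variants overlap another annotated gene, and reads from such stretches cannot be told apart. The table listed 8500 genes at 1 FPKM or more in Polycomb RNAi and 8335 in wild type. The wing disc markers vg, nub, sd, ap, wg, dpp, en and Dll were all present, between 13.1 and 95.2 FPKM in Polycomb RNAi and between 21.5 and 143.9 FPKM in wild type. The targeted gene Pc was at 13.0 FPKM in Polycomb RNAi and 14.6 FPKM in wild type, and reads of the RNAi transgene are not separated from those of the gene, so this value does not check the labels.

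Canonical proteasome genes were abundant in both libraries. With the exception of Prosalpha1, the 27 canonical genes lay between 114.8 and 317.7 FPKM in Polycomb RNAi, with a median of 190.8 FPKM, and between 115.2 and 311.2 FPKM in wild type, with a median of 190.3 FPKM. Together they made up 0.569% of the summed FPKM of named genes in Polycomb RNAi and 0.601% in wild type. That sum includes the most abundant entry, CG41421, which took 16.4% of it in Polycomb RNAi and 9.41% in wild type. Without that entry in the sum the proteasome share is not lower in Polycomb RNAi.

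The alpha ring genes were the most abundant group. Prosalpha2 was the highest of all members at 317.7 FPKM in Polycomb RNAi and 311.2 FPKM in wild type. It partly overlaps Aos1, which had 173.8 FPKM in Polycomb RNAi and 179.7 FPKM in wild type, so its exact level is uncertain. Within the ring Prosalpha6 followed with 282.6 FPKM in Polycomb RNAi and 270.6 FPKM in wild type, and Prosalpha5 with 258.1 FPKM in Polycomb RNAi and 266.6 FPKM in wild type. The 6 measured alpha genes spanned a 1.37-fold range in Polycomb RNAi and a 1.38-fold range in wild type, although each ring holds a single copy of every subunit. The lowest alpha gene was Prosalpha3 at 232.6 FPKM in Polycomb RNAi, and Prosalpha7 at 226.2 FPKM in wild type.

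Prosalpha1, which encodes another alpha ring subunit, was listed at 0 in both libraries. An exact 0 in such a table can be a failed estimate. In the Release 6 gene order its copy Prosalpha1R lies close by with CG18853 between them, and no entry for Prosalpha1R was found under the symbols tried. CG18853 was also listed at 0 in both libraries, while phr, on the other side of Prosalpha1, had 12.7 FPKM in Polycomb RNAi and 14.6 FPKM in wild type. Prosalpha1 is left out of the medians and counts below, except where no expression minimum is set.

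The beta ring genes had levels close to those of the alpha ring. The 3 genes for the proteolytic subunits were not equal among themselves. Prosbeta2, the trypsin-like subunit, had 278.4 FPKM in Polycomb RNAi and 262.3 FPKM in wild type. Prosbeta1, the caspase-like subunit, had 248.2 FPKM in Polycomb RNAi and 256.1 FPKM in wild type. Prosbeta5, the chymotrypsin-like subunit, was the lowest core gene in both libraries, at 190.8 FPKM in Polycomb RNAi and 187.3 FPKM in wild type. The structural subunit genes Prosbeta3, Prosbeta6 and Prosbeta7 lay between these values. The beta ring median was 246.4 FPKM in Polycomb RNAi and 248.0 FPKM in wild type, beside 254.2 FPKM in Polycomb RNAi and 256.8 FPKM in wild type for the alpha ring.

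Genes of the regulatory particle stood at lower levels than those of the core. The 15 base and lid genes had a median of 172.6 FPKM in Polycomb RNAi and 174.4 FPKM in wild type, and the 12 core genes 249.3 FPKM in Polycomb RNAi and 251.5 FPKM in wild type. The ratio of the core median to the regulatory median was 1.44 in each library. Among these genes, found by the name rule, the groups overlapped only through Prosbeta5. The other 11 core genes lay above all 15 base and lid genes in both libraries. The highest of the 15 was the lid gene Rpn9 at 221.0 FPKM in Polycomb RNAi and 208.6 FPKM in wild type. The lid gene Sem1, which the rule did not reach, stood above all core genes, as given below. Of 180 pairs of a core and a regulatory gene, the core gene was higher in 178 pairs in Polycomb RNAi and in 177 pairs in wild type. These counts describe genes within a library and are no test.

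**Figure D1:**
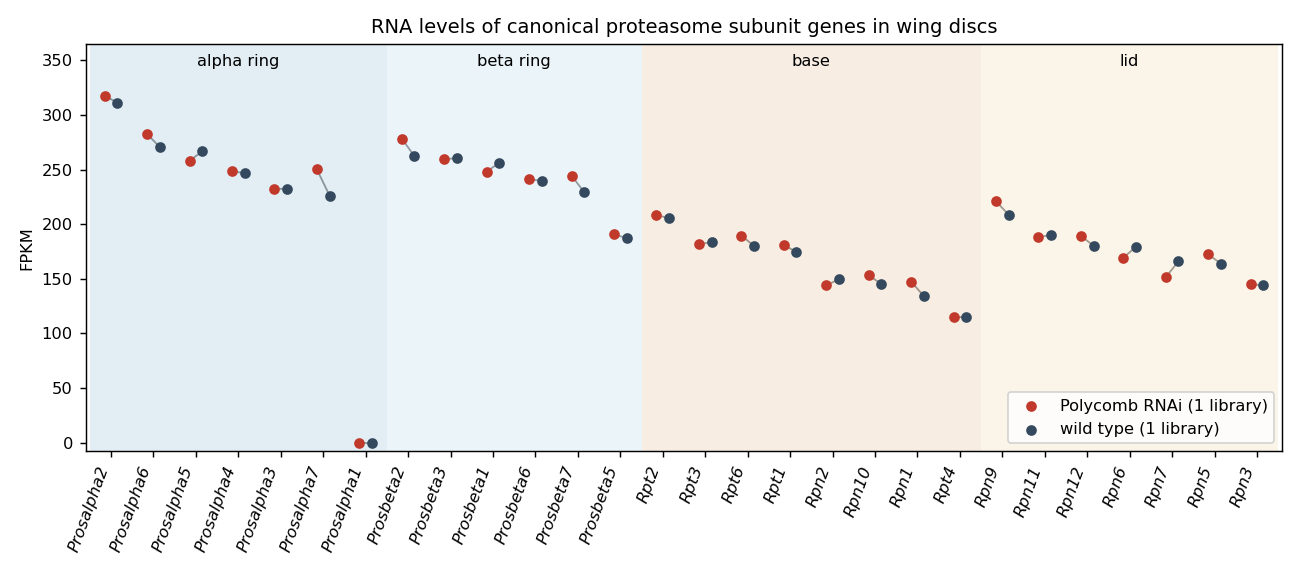
FPKM (vertical axis, linear, from 0) of the 28 canonical proteasome genes found by the name rule, grouped by ring or subcomplex and ordered by their wild-type level. Each gene has a red point for the Polycomb RNAi library and a dark point for the wild-type library, joined by a line. The alpha and beta genes sit above the base and lid genes except for Prosbeta5, and Prosalpha1 is listed at 0 in both.

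Within the base, the ATPase genes differed by 1.81-fold in Polycomb RNAi and by 1.79-fold in wild type, although the assembled ring contains the same number of each. Rpt2, whose carboxy terminus helps to open the core gate, had 208.1 FPKM in Polycomb RNAi and 205.8 FPKM in wild type. Rpt4 was the lowest of all canonical members listed above 0, at 114.8 FPKM in Polycomb RNAi and 115.2 FPKM in wild type. Rpt1, Rpt3 and Rpt6 had 181.3, 181.5 and 189.7 FPKM in Polycomb RNAi, and 174.4, 183.8 and 180.1 FPKM in wild type. Among these 5 ATPase genes Rpt4 was thus the lowest in both libraries.

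The non-ATPase base genes lay near the lower end of the canonical range. The large scaffold genes Rpn1 and Rpn2 had 147.6 and 144.1 FPKM in Polycomb RNAi, and 134.3 and 149.6 FPKM in wild type. Rpn10, a ubiquitin receptor, had 153.3 FPKM in Polycomb RNAi and 145.3 FPKM in wild type. In the lid, Rpn11, the deubiquitinase that removes the ubiquitin chain before degradation, had 188.1 FPKM in Polycomb RNAi and 190.3 FPKM in wild type. Rpn3 was the lowest of the 7 lid genes found by the name rule, at 145.2 FPKM in Polycomb RNAi and 143.9 FPKM in wild type. The order of the 27 levels was nearly the same in both libraries, with a Spearman rho of 0.970, and the libraries share the annotation and transcript lengths behind each FPKM. Over all 8800 tested genes rho was 0.958.

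The difference between the libraries was taken per gene as log2((Polycomb RNAi FPKM + 1)/(wild-type FPKM + 1)), for the 8800 genes with at least 1 FPKM in either library. Of the 41 members, 28 passed this minimum, namely 27 canonical genes and the variant Rpt3R. None of the 28 was at least 2-fold higher, where the share over all tested genes was 4.41%, and none was at least 2-fold lower, where it was 3.20%. A smaller step of 0.32 on the log2 scale in either direction, which is 25% more or 20% less in FPKM + 1, was used beside it. None of the 27 canonical genes was at least 25% higher or at least 20% lower, against 13.0% of all tested genes higher and 11.8% lower. Abundant genes vary less, however. Among the 630 genes whose mean level lay within the range of the canonical members, 4.76% were at least 25% higher and 5.71% at least 20% lower, so the contrast with the background is smaller at this level of expression.

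The canonical differences ran from -0.13 to 0.15 with a median of 0.016, beside a median of -0.0032 and quartiles of -0.14 and 0.14 over all tested genes. The largest of these 27 differences in either direction, 0.15, was also used as a limit, and by construction all 27 lie within it. Of the 630 genes of similar level 66.3%, and of all tested genes 51.8%, lay within the same limit. Because the limit was taken from the 27 genes themselves, these shares are no test of how tightly they lie. Prosbeta4, which the name rule did not reach, was outside it at 0.20. In FPKM as deposited, 18 of the 27 were higher and 9 lower in Polycomb RNAi, but after scaling to equal summed FPKM 2 were higher and 25 lower. With the 20 most abundant genes of each library left out of the sums, 22 were higher and 5 lower. Centring on the median of all tested genes left 18 higher and 9 lower. Scaling to equal sums of all named genes moved the median of all tested genes to -0.10, so these counts of direction depend on the scaling. Relative to the median of all tested genes, the canonical median differed by 0.019 as deposited and by 0.015 with equal sums.

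Core and regulatory genes did not separate by their difference between the libraries. The median log2 difference was 0.017 for the 12 core genes and 0.016 for the 15 regulatory genes, 0.00097 apart. This distance has no stable sign, since core minus regulatory was -0.018 with the subunits listed under other names included. Without an expression minimum it was -0.0083, but that setting lets in Prosalpha1, listed at 0 in both libraries, so this value says little about the sign. By subcomplex the medians were 0.019 for the alpha ring, 0.016 for the beta ring, 0.036 for the base and 0.012 for the lid. The spread within each group was wider than the distance between groups.

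**Figure D2:**
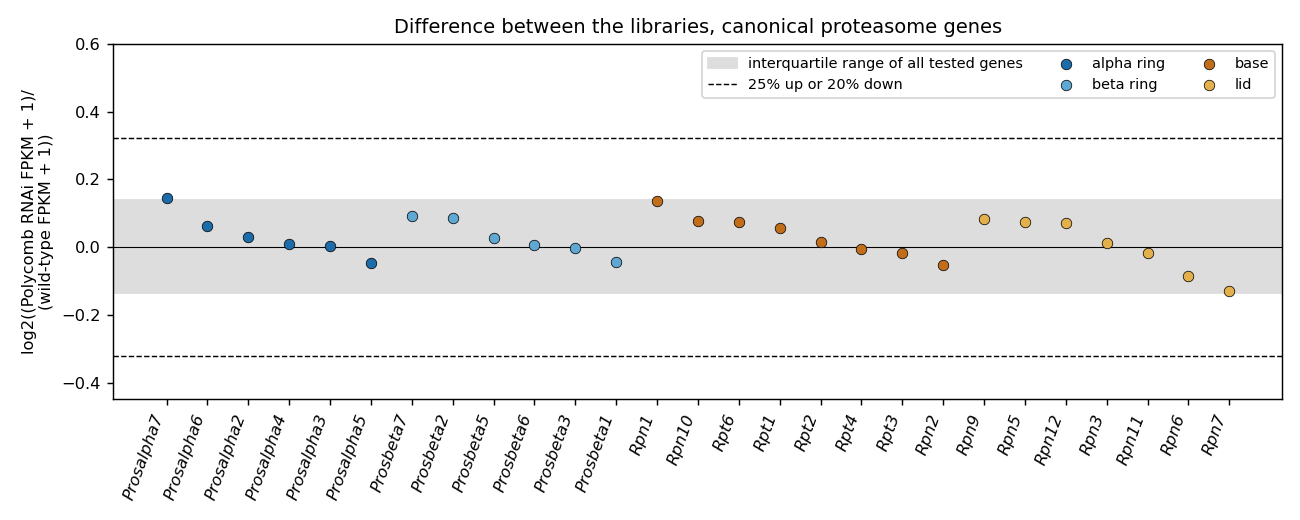
Log2 difference between the Polycomb RNAi and the wild-type library (vertical axis, pseudocount of 1) for the 27 canonical genes above the expression minimum, coloured by ring or subcomplex. The grey band spans the quartiles of all tested genes, -0.14 to 0.14, and dashed lines mark 25% more and 20% less. Every point lies inside the dashed lines and Prosalpha7 at 0.15 lies just above the band.

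The largest differences among the canonical genes found by the name rule were small. Prosalpha7 had 250.3 FPKM in Polycomb RNAi and 226.2 FPKM in wild type, a log2 difference of 0.15, or 10.6% more. Rpn1 had the next largest, 0.14 on the log2 scale, or 9.91% more. The lid gene Rpn7 had 151.6 FPKM in Polycomb RNAi and 166.0 FPKM in wild type, a log2 difference of -0.13, or -8.69%. Rpn6, a lid subunit that braces the core against the cap, had 169.2 FPKM in Polycomb RNAi and 179.5 FPKM in wild type, a log2 difference of -0.08. These 2 lid genes thus differed from Rpn9 and Rpn12, whose log2 differences were 0.08 and 0.07, in sign but with sizes that 1 library per genotype cannot separate from library error.

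In the alpha ring Prosalpha6 and Prosalpha2 came after Prosalpha7, with log2 differences of 0.06 and 0.03, and Prosalpha5 had -0.05. Among the 6 beta ring genes found by the name rule the largest were those of Prosbeta7, at 244.6 FPKM in Polycomb RNAi and 229.3 FPKM in wild type, and of Prosbeta2, with log2 differences of 0.09 and 0.09. Prosbeta1 had -0.05. In the base Rpn10 and Rpt6 followed Rpn1, with 0.08 and 0.07, and Rpn2 had -0.05. With equal sums the log2 differences of Prosalpha6, Prosalpha2, Prosbeta7, Prosbeta2, Rpn10, Rpt6, Rpn9 and Rpn12 were below 0. With the most abundant genes left out of the sums, the differences of these genes were all above 0.

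Another 5 canonical subunits are listed under names that the rule did not reach, which completes the set of subunits of both particles. Prosbeta4 (listed as CG17331), a beta ring gene, had 326.7 FPKM in Polycomb RNAi and 285.1 FPKM in wild type, a log2 difference of 0.20, the largest of any canonical subunit and still below the step of 25%. Sem1 (CG13779), a very small acidic lid protein, had 355.5 FPKM in Polycomb RNAi and 325.5 FPKM in wild type and so stood above all core genes, unlike the other lid genes. Rpt5 (Tbp-1), the remaining ATPase, had 138.2 FPKM in Polycomb RNAi and 132.2 FPKM in wild type. Rpn8 (Mov34), the partner of Rpn11, had 136.7 FPKM in Polycomb RNAi and 137.9 FPKM in wild type. Rpn13 (CG13349), a ubiquitin receptor, had 118.5 FPKM in Polycomb RNAi and 114.9 FPKM in wild type. With these included, the ratio of the core to the regulatory median was 1.48 in Polycomb RNAi and 1.54 in wild type. Because of Sem1, no core gene then lay above every regulatory gene in either library. Of 247 pairs of a core and a regulatory gene, the core gene was higher in 93.9% in Polycomb RNAi and 93.5% in wild type.

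The variants stood far below their canonical genes. Only Rpt3R reached 1 FPKM, in both libraries. In wild type 10 of the 13 variants were listed at 0, and 1 of these, Prosbeta2R1, also in Polycomb RNAi. The other 9 had between 0.0524 and 0.232 FPKM in Polycomb RNAi. None was above 0 in wild type and at 0 in Polycomb RNAi. Over all named genes listed at 0 in wild type, 33.5% were above 0 in Polycomb RNAi, and over protein-coding genes 42.9%. In the opposite direction, 15.8% of the genes at 0 in Polycomb RNAi were above 0 in wild type. Only 1 variant, Prosbeta2R1, was at 0 in Polycomb RNAi, so no share of variants can be set beside that value.

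The 4 T variants are paralogues of alpha ring genes. Prosalpha3T had 0.0650 FPKM in Polycomb RNAi, Prosalpha4T1 had 0.0868 FPKM, Prosalpha4T2 had 0.120 FPKM and Prosalpha6T had 0.204 FPKM, and all were listed at 0 in wild type. In Polycomb RNAi these levels were between 0.0279% and 0.0722% of the level of the canonical gene. Prosalpha4T1 lies within the span of CG42322, which had 0.293 FPKM in Polycomb RNAi and 0.541 FPKM in wild type, so its value is uncertain.

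Among the beta variants, Prosbeta2R1 was listed at 0 in both libraries, and Prosbeta2R2 had 0.0524 FPKM in Polycomb RNAi and was listed at 0 in wild type. Prosbeta4R1 and Prosbeta4R2 had 0.115 and 0.232 FPKM in Polycomb RNAi, and Prosbeta5R1 had 0.136 FPKM, and these too were listed at 0 in wild type. The lid variant Rpn12R had 0.0885 FPKM in Polycomb RNAi and was listed at 0 in wild type. Rpn12R lies within the span of Sytbeta, and a second entry for the same gene, CG11552, had 0.000163 FPKM in Polycomb RNAi and was listed at 0 in wild type.

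Of the 13, the 3 ATPase variants were the only ones above 0 in both libraries, and each had its own pattern. Rpt6R had 0.778 FPKM in Polycomb RNAi and 0.152 FPKM in wild type, a ratio of 5.13 between values below the expression minimum. Rpt4R had 0.0460 FPKM in Polycomb RNAi and 0.0490 FPKM in wild type, a ratio of 0.939. That ratio is close to 0.96, the most frequent ratio among the 1159 genes between 0.005 and 0.3 FPKM in both libraries, with 19.8% of these genes within 5% of it.

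Rpt3R was the most abundant variant and was lower in Polycomb RNAi. It had 1.98 FPKM in Polycomb RNAi and 4.17 FPKM in wild type, which is a log2 difference of -0.79 after adding 1 and a ratio of 0.475 in FPKM. It equalled 1.09% of the level of Rpt3 in Polycomb RNAi and 2.27% in wild type, while Rpt3 itself had a log2 difference of -0.02. Among the 731 tested genes with a mean of 2 to 5 FPKM, 24.2% were at least 20% lower, 6.98% at least 2-fold lower and 9.71% at or below the difference of Rpt3R. It overlaps Alg12 (listed as CG8412), which had 10.7 FPKM in Polycomb RNAi and 10.1 FPKM in wild type. With a pseudocount of 0.1 the log2 difference was -1.04, past 2-fold. All 13 variants summed to 3.90 FPKM in Polycomb RNAi and 4.37 FPKM in wild type. Without Rpt3R the 12 other variants summed to 1.92 FPKM in Polycomb RNAi, of which Rpt6R gave 0.778 FPKM, and to 0.201 FPKM in wild type.

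A further 2 variants are listed under CG numbers. Prosbeta5R2 (CG31742) had 0.278 FPKM in Polycomb RNAi and was listed at 0 in wild type. Rpn13R (CG6789) had 0.223 FPKM in Polycomb RNAi and 0.0783 FPKM in wild type, and it lies within the span of rg, which had 13.2 FPKM in each library.

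Markers of testis and the male germline were detected in the same libraries at low levels. All 25 in the list were in the table, and they summed to 53.1 FPKM in Polycomb RNAi and 14.9 FPKM in wild type. Of the 25, 21 had a higher FPKM in Polycomb RNAi and 2 a lower one, and 13 were listed at 0 in wild type, of which 11 were above 0 in Polycomb RNAi. Of the 15 that were tested, 11 were at least 2-fold higher and none at least 2-fold lower, against 4.41% and 3.20% of all tested genes. However, 11 of the 15 reached 1 FPKM in Polycomb RNAi alone and so had to be higher there. The late sperm genes Mst84Dc and Mst87F had 8.61 and 6.24 FPKM in Polycomb RNAi, and 0.601 and 1.20 FPKM in wild type. Among the 4 markers that reached 1 FPKM in wild type, Mst87F alone passed the 2-fold rule, with a log2 difference of 1.72. For bol, gdl and twe the log2 differences were 0.33, 0.01 and -0.16. The testis tubulin gene betaTub85D had 0.994 FPKM in Polycomb RNAi and was listed at 0 in wild type, and the spermatocyte regulator aly and the germline gene nos were listed at 0 in both. Whether these markers have a part in the values of the variants was not tested. In such bulk samples fewer cells of a type and less RNA per cell cannot be told apart.

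**Figure D3:**
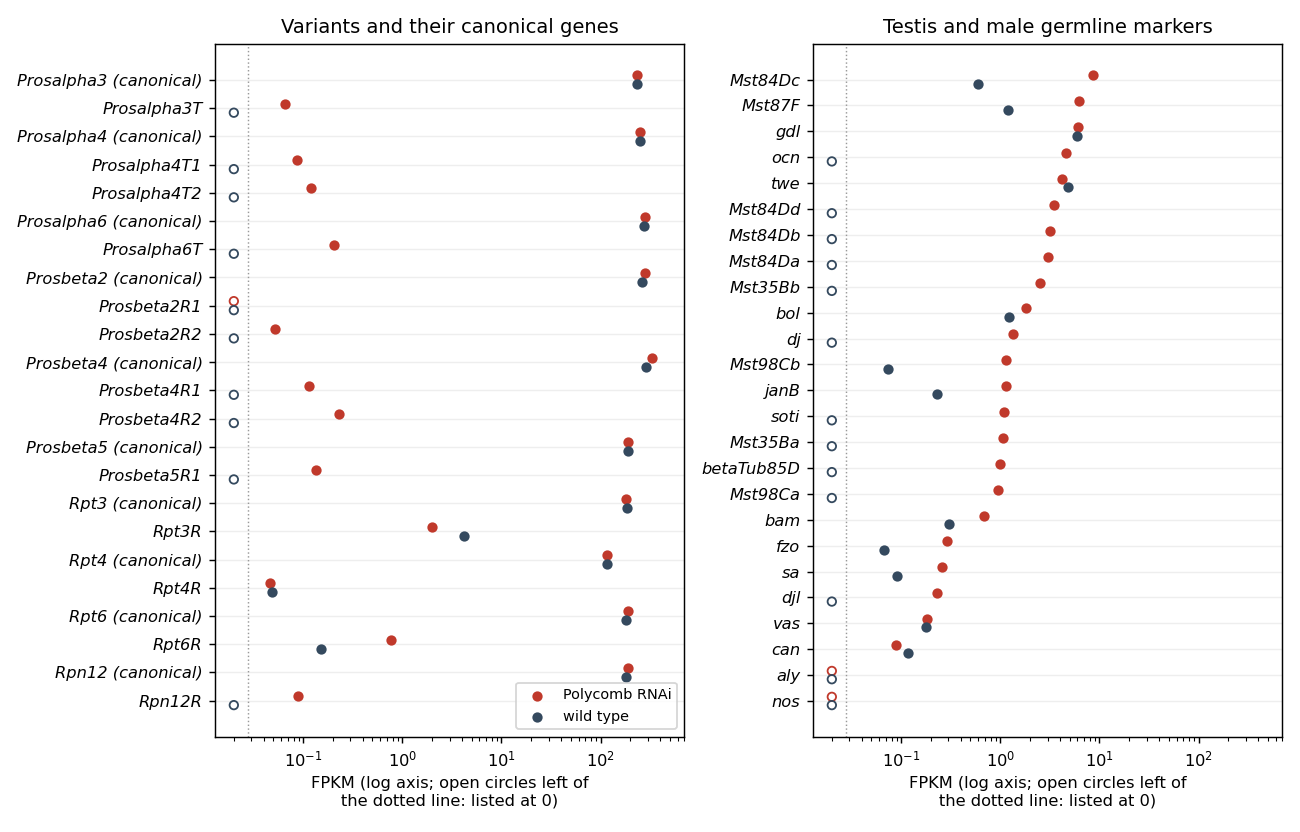
FPKM on a log axis for the 13 variants with their canonical genes (left) and for the 25 testis and male germline markers (right), with a red point for the Polycomb RNAi library and a dark point for the wild-type library. Open circles left of the dotted line are values listed at 0. Except for Rpt3R, all variants lie below 1 FPKM in both libraries, and 9 of them are at 0 in wild type only.

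Markers of the disc and of other cell types also differed between the libraries, where 13.0% of all tested genes were at least 25% higher and 11.8% at least 20% lower. Of the 8 wing disc markers none was at least 25% higher and 4 were at least 20% lower, with a median log2 difference of -0.60. Of these 4, vg and Dll were at least 2-fold lower, with log2 differences of -1.14 and -1.42, and ap lay just past 2-fold with 71.3 FPKM in Polycomb RNAi and 143.9 FPKM in wild type. The remaining lower marker, nub, had -0.91. Neither 25% higher nor 20% lower were sd at -0.29, dpp at -0.22, en at -0.05 and wg, which was higher, at 0.25. All 6 haemocyte markers were at least 25% higher, with a sum of 64.2 FPKM in Polycomb RNAi and 25.3 FPKM in wild type. The 6 fat body markers summed to 2682 FPKM in Polycomb RNAi and 4214 FPKM in wild type, and 3 of them were at least 20% lower. Most of that gap lay in Lsp1gamma, with 465.4 FPKM in Polycomb RNAi and 1675 FPKM in wild type. The 3 others, Lsp1alpha, Fbp1 and Fbp2, had log2 differences of -0.06, 0.07 and 0.17. Of the 5 muscle markers, which summed to 86.3 FPKM in Polycomb RNAi and 52.9 FPKM in wild type, 3 were at least 25% higher, while Mef2 and twi had log2 differences of 0.04 and 0.01. The 3 tracheal markers summed to 32.9 FPKM in Polycomb RNAi and 244.4 FPKM in wild type, mostly through obst-A with 20.2 FPKM in Polycomb RNAi and 220.0 FPKM in wild type. Of the other tracheal markers, trh was also at least 20% lower and btl had a log2 difference of -0.21. No part of these cell types in the proteasome values was tested.

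Genes that feed or regulate the proteasome lay mostly within this smaller step. Of 20 genes in a list of ubiquitin genes, receptors and regulators, 19 were in the table and all 19 were tested. With 1 at least 25% higher (5.26% of the 19 genes, against 13.0% of all tested genes) and 1 at least 20% lower (5.26%, against 11.8%), their median log2 difference was -0.01. Among the 630 genes at the level of the canonical members these shares were 4.76% and 5.71%, close to those of the list. The listed genes themselves ran from 7.22 to 3749 FPKM in Polycomb RNAi, beyond that level range. The higher gene was Ubi-p63E, a polyubiquitin gene, with 123.3 FPKM in Polycomb RNAi and 90.2 FPKM in wild type, a log2 difference of 0.45. The other polyubiquitin gene, Ubi-p5E, had 132.1 FPKM in Polycomb RNAi and 113.2 FPKM in wild type, a log2 difference of 0.22. Both encode repeats of the same protein and can share reads, so their split is uncertain.

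The lower gene was maf-S, which encodes the partner of cnc in a transcription factor that activates proteasome and stress genes. It had 62.0 FPKM in Polycomb RNAi and 88.3 FPKM in wild type, a log2 difference of -0.50. Its partner cnc had 31.2 FPKM in Polycomb RNAi and 28.0 FPKM in wild type, and Keap1, the inhibitor of cnc, had 7.22 FPKM in Polycomb RNAi and 8.93 FPKM in wild type, a log2 difference of -0.27. With equal summed FPKM Keap1 was at -0.37, past the step of 20%. The activator cap gene REG had 222.8 FPKM in Polycomb RNAi and 255.3 FPKM in wild type, a log2 difference of -0.20. Pomp, the assembly chaperone of the core, was nearly equal at 145.6 FPKM in Polycomb RNAi and 147.0 FPKM in wild type. The F-box gene ntc, a partner of the core regulator PI31 in sperm maturation, had 7.37 FPKM in Polycomb RNAi and 6.43 FPKM in wild type, a log2 difference of 0.17.

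**Figure D4:**
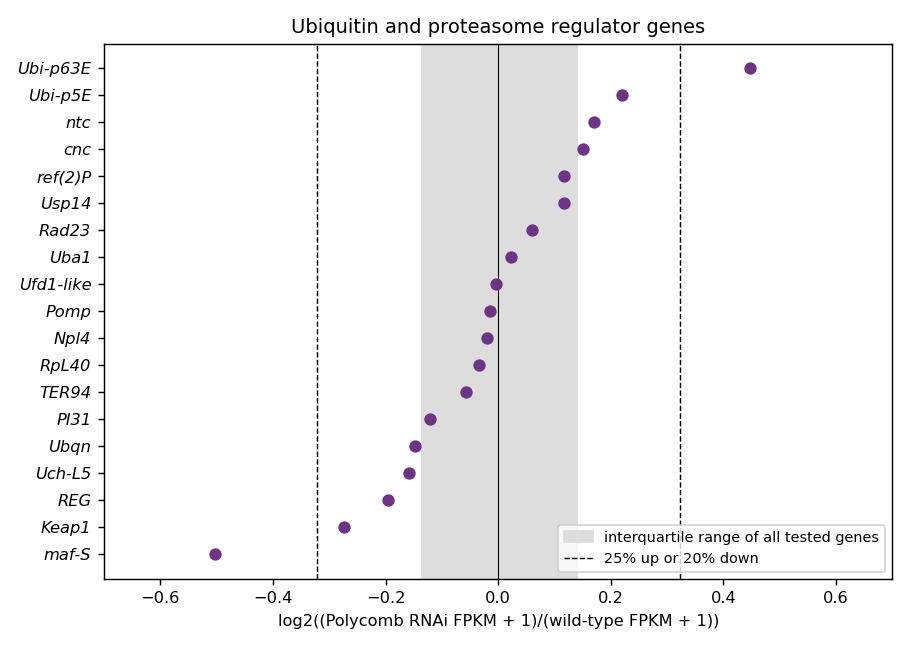
Log2 difference between the Polycomb RNAi and the wild-type library (horizontal axis, pseudocount of 1) for the 19 tested ubiquitin and proteasome regulator genes, 1 point per gene. The grey band spans the quartiles of all tested genes and dashed lines mark 25% more and 20% less. Ubi-p63E at 0.45 and maf-S at -0.50 lie outside the dashed lines.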

How the data were processed

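The table the authors deposited gives FPKM per gene and RNA library, without counts or depths. Build dm3 and the tools TopHat2 2.0.11, Bowtie 1.0.0, Cufflinks, SICER and CASAVA 1.4 are named without roles, per the submitters' processing notes. The annotation and settings are not given there. An unnamed row, with 0.206% of the summed FPKM in Polycomb RNAi and 0.127% in wild type, was left out. Table names were matched by symbol or unique synonym to a RefSeq gene table of Release 6, used for names and gene order only, and 14965 of 15627 (95.8%) matched. The members and lists were chosen with earlier results of these data known.

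Differences were computed with pandas 2.3.3 and numpy 2.4.6 as log2 of FPKM plus a pseudocount of 1, for genes with at least 1 FPKM in either library, and checked on simulated data. With 1 library per genotype no test was possible, and rules of 2-fold and of 25% more or 20% less are set beside their share of all tested genes. All variants were named, with the extremes of level and the 3 largest differences per subcomplex and the 6 largest among regulators. Other named genes, and the backgrounds limited to a level range or to protein-coding genes, were chosen after seeing the data. Pseudocount, minimum and scaling were varied. FPKM is scaled to mapped fragments, so a few abundant entries can shift every other value. H4K20me1 peaks were not used, since no gene positions on dm3 were at hand.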

Additional observations from a re-analysis of the deposited data

How the results depend on the processing

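The counts of canonical genes at least 25% higher or 20% lower stayed at 0 under all alternatives of pseudocount, minimum and scaling, and with the subunits listed under older names. The number of members at least 2-fold lower was 1, Rpt3R, with a pseudocount of 0.1. The number of variants tested was 13 without a minimum and 0 with a minimum of 5 FPKM. With equal summed FPKM, the median log2 differences were -0.086 for core genes and -0.087 for regulatory particle genes, and 2 regulator genes, maf-S and Keap1, were at least 20% lower. The median of all tested genes was -0.10 under that scaling, which by its construction shifts all genes. With the most abundant genes left out of the sums, the medians were 0.043 for core genes and 0.042 for regulatory particle genes. No single-gene difference past that step changed sign under any of these alternatives. No paired analysis was possible because each genotype has 1 library, and for the same reason no replicate could be left out. Depth is unknown, so values below 1 FPKM carry no counting interval and a gene listed at 0 may be below detection.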
